A study of Mus musculus with 12 samples.

Results

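Fatty acid synthesis was followed through 10 genes, Acly, Me1, Acaca, Acacb, Fasn, Elovl6, Scd1, Scd2, Srebf1, and Mlxipl. They were listed by symbol, with earlier results of these data known. All 10 were found among the 24421 genes of the count tables. Poly(A) RNA had been sequenced from 6 liver tumors of 6 mice and from a non-tumoral liver sample of each mouse. The p21+/Tert mice (M662, M663, M941, and M992) carry the telomerase reverse transcriptase gene Tert under the promoter of p21 (Cdkn1a), and the p21+/TertCi mice (M981 and M984) carry a catalytically inactive Tert in the same place. All 12 libraries therefore come from animals with 1 modified p21 allele, over 18 mo of age and on a standard diet. All livers come from tumor-bearing mice. The endogenous Tert locus is intact in the models by design, but the paper reports its loss in a part of the tumors. Transgene expression follows the activity of the p21 promoter and is not restricted to hepatocytes by design. Each tumor is a single lesion, named by genotype (T or TCi), tumor type (HCC, hepatocellular carcinoma, or HCA, hepatocellular adenoma), and mouse. The published histology lists T-HCC663 as an adenoma, against its name, which is kept here. T-HCC662 and T-HCC663 carry an activating mutation of Ctnnb1 (β-catenin), T-HCC941 and TCi-HCC981 a mutation of Egfr or Hras (called MAPK tumors here), and T-HCA992 and TCi-HCA984 neither. The livers are named NT with the number of the mouse. One p21+/Tert liver is labelled with a different number (p_961) and was taken as NT662 by elimination, so the pair of mouse M662 is an assumption.

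De novo fatty acid synthesis turns citrate exported from mitochondria into long-chain fatty acids in the cytosol. ATP-citrate lyase releases acetyl-CoA, acetyl-CoA carboxylase makes malonyl-CoA, fatty acid synthase builds palmitate with NADPH as reductant, and elongases and desaturases lengthen and unsaturate the product. In liver the pathway is turned on after feeding by SREBP-1c (from Srebf1), which acts downstream of insulin, and by ChREBP (from Mlxipl), which responds to carbohydrate.

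Between 14571716 and 26170661 reads per library had been assigned to genes. Levels are given as CPM, counts per 1000000 of the library total after scaling with edgeR's TMM method, and are compared within a gene. Differences are log2 fold changes with their standard error (SE) from edgeR's quasi-likelihood test over all expressed genes, with Benjamini-Hochberg adjusted p-values and a threshold of 0.05. The β-catenin targets Axin2 and Glul matched the mutation classes, with Glul at 9494 and 10316 CPM in the tumors with mutated Ctnnb1, 140.3 to 439 in the other tumors, and 1092 to 1830 in the livers. Hepatocyte markers (6 genes) summed to 25901–49511 CPM in livers, 31718 and 15331 CPM in T-HCC662 and T-HCC663, and 61629.9–92042 CPM in the other tumors, where Alb alone made up 47664–72143 CPM. Their median log2 fold change between tumors and livers was -0.40, and 1 of the 6, Tat (tyrosine aminotransferase), was called, having fallen by 1.75 ± 0.41 on the log2 scale (adjusted p = 0.0164). In bulk tissue, fewer cells of a type and less RNA per cell cannot be told apart.

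Scd2, which encodes a stearoyl-CoA desaturase that is a minor form in adult mouse liver, was the member that separated tumors from livers. It was at 3.74, 13.2, 3.56, 18.6, 21.5, and 3.30 CPM in the livers NT662, NT663, NT941, NT992, NT981, and NT984. In the tumors of the same mice it was at 274, 24.2, 991, 1135, 389, and 152 CPM. Every tumor lay above every liver, although T-HCC663, at 24.2 CPM, was close to the highest liver at 21.5 CPM. Among all 13822 genes tested, 5.11% had groups that did not overlap in this way, and Scd2 was the only one of the 10 members that did. The log2 fold change was 5.53 ± 0.91 (SE, n = 6 against 6), or 46.2-fold, with an adjusted p of 0.00312 in edgeR's test. When the mouse was entered as a block it was 5.30 ± 0.95 (adjusted p = 0.0112). The remaining members did not pass the threshold, so 1 of 10 was called, against 10.7% of all genes tested.

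**Figure D1:**
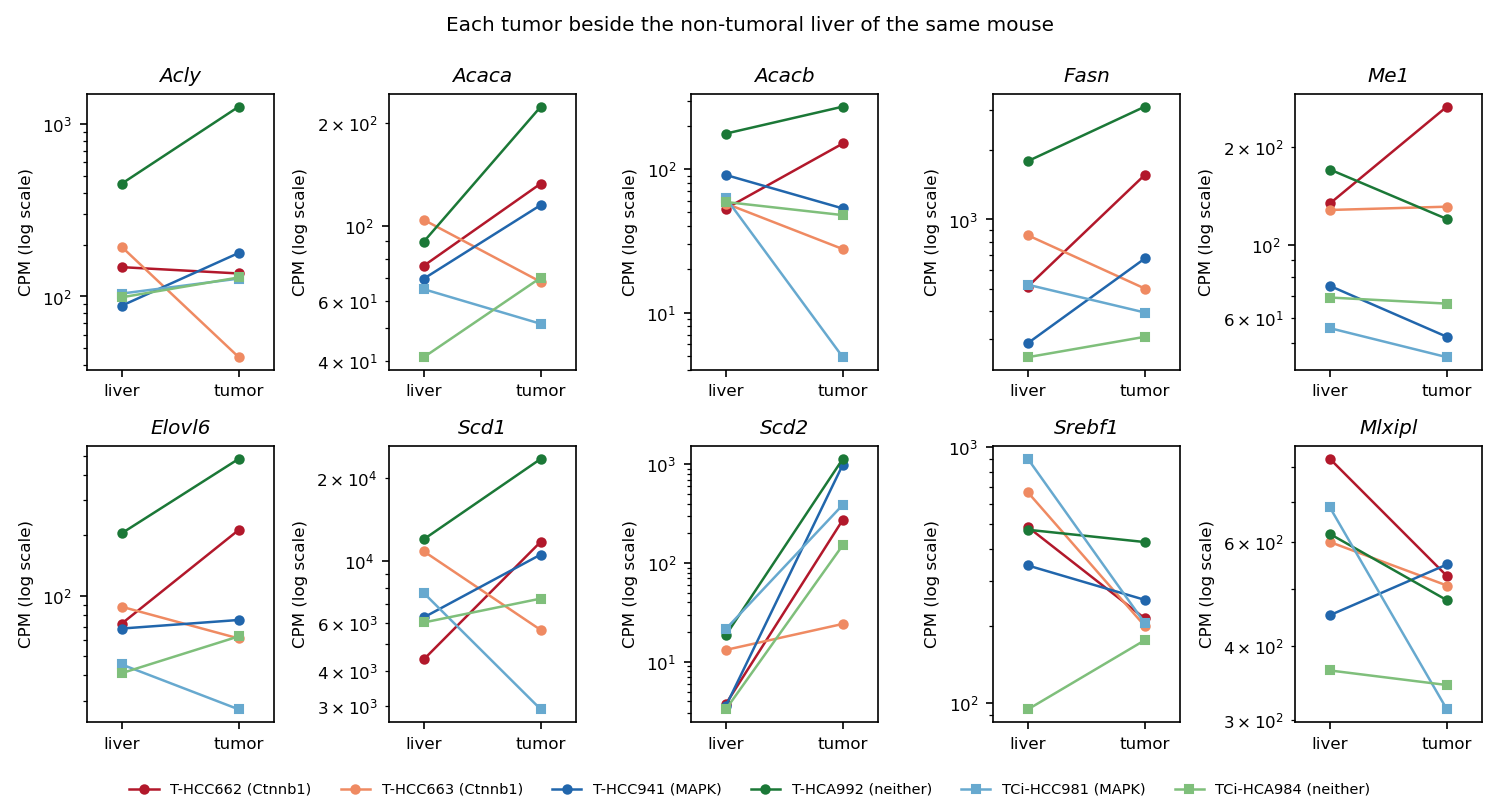
CPM of the 10 genes on log axes in the non-tumoral liver (left) and tumor (right) of each mouse, joined by a line. Circles are p21+/Tert mice, squares p21+/TertCi mice, and the colors give the mouse and its tumor class. Scd2 lies higher in the tumor in all 6 mice, from 13.2 against 24.2 CPM in mouse M663 to 3.56 against 991 CPM in mouse M941, whereas the other genes lie higher in some tumors and lower in others.

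Scd1, the main stearoyl-CoA desaturase of liver, lies near Scd2 on chromosome 19 (Scd1 at chr19:44394455-44407879 on the minus strand, Scd2 at chr19:44293674-44306864 on the plus strand, GENCODE on GRCm38). It did not follow Scd2. Scd1 was at 4417, 10851, 6264, 11996, 7671, and 6004 CPM in the livers (same order of mice) and at 11756, 5639, 10568, 23423, 2914, and 7326 CPM in the tumors. The groups overlapped, with both the highest and the lowest value among tumors, and the log2 fold change was 0.38 ± 0.48 (adjusted p = 0.66). Within a library, Scd2 made up 0.0491–0.251% of the summed Scd1 and Scd2 counts per exon length in the livers. The tumors reached 0.383% (T-HCC663), 1.82% (TCi-HCA984), 2.04% (T-HCC662), 4.16% (T-HCA992), 7.75% (T-HCC941), and 10.7% (TCi-HCC981). The share does not depend on the scaling between libraries, and each tumor again lay above all livers. Of the 50-base stretches in Scd2 exons, 3.97% also occur in another gene, among them the neighboring Scd1, Scd3, and Scd4, so a small part of the reads could have been shared.

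**Figure D2:**
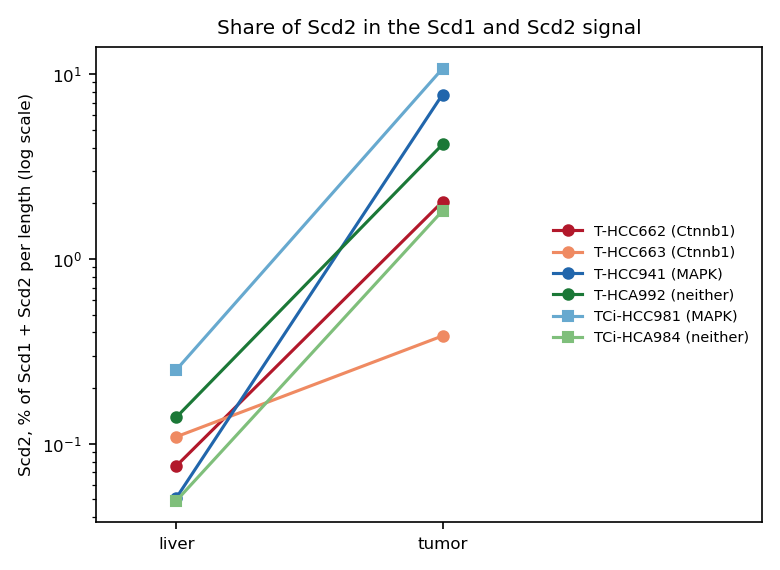
Share of Scd2 in the summed Scd1 and Scd2 counts per exon length, in percent on a log axis, for the liver and tumor of each mouse joined by a line. The livers lie between 0.0491% and 0.251% and the tumors between 0.383% (T-HCC663) and 10.7% (TCi-HCC981).

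Elovl6 elongates palmitate to stearate, the preferred substrate of the desaturases. It was at 72.6, 88.1, 68.6, 205, 45.4, and 41.1 CPM in livers and 213, 61.2, 75.7, 482, 27.1, and 62.7 CPM in tumors of mice M662, M663, M941, M992, M981, and M984. T-HCC662 and T-HCA992 were above every liver and TCi-HCC981 was below every liver. A log2 fold change of 0.83 ± 0.64 did not pass the threshold (adjusted p = 0.448).

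Acly, ATP-citrate lyase, supplies the cytosolic acetyl-CoA. Its livers were at 148, 194, 88.4, 452, 104, and 98.9 CPM and its tumors at 136, 44.4, 179, 1266, 127, and 129 CPM in the same order. T-HCA992 stood far above the other tumors and T-HCC663 below every liver. The log2 fold change was 0.80 ± 0.73 (adjusted p = 0.529), and it turned to -0.56 without T-HCA992. Me1, the cytosolic malic enzyme, is a source of NADPH for fatty acid synthase. Me1 was at 134, 128, 75.0, 170.2, 55.7, and 69.1 CPM in livers and 265, 131, 52.4, 120.1, 45.4, and 66.2 CPM in tumors, with a log2 fold change of 0.10 ± 0.43 (adjusted p = 0.914). Here the tumor with the highest value was T-HCC662 and not T-HCA992. Of the 50-base stretches in Me1 exons 28.3% also occur in the predicted genes Gm48795, Gm7049, and Gm7329, and an antisense gene overlaps its exons, so its counts are less certain than those of Acly.

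Acaca and Acacb encode the acetyl-CoA carboxylases, the first of which makes malonyl-CoA for synthesis in the cytosol and the second, at the mitochondrial surface, malonyl-CoA that restrains fatty acid oxidation. Acaca was at 76.2, 104, 69.8, 89.7, 65.0, and 41.0 CPM in livers and at 133, 68.3, 115, 224, 51.4, and 70.3 CPM in tumors. The tumors T-HCC662, T-HCC941, and T-HCA992 exceeded all livers, and no tumor fell below them (0.57 ± 0.34, adjusted p = 0.312). Acacb behaved differently, at 53.1, 57.6, 91.1, 177, 63.0, and 59.0 CPM in livers and 151, 27.7, 53.2, 273, 4.88, and 47.8 CPM in tumors. T-HCC663, TCi-HCC981, and TCi-HCA984 were below every liver, and TCi-HCC981 was 55.9 times lower than T-HCA992. Its log2 fold change was 0.15 ± 0.69 (adjusted p = 0.917).

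Fasn, fatty acid synthase, was at 509.9, 853, 289, 1796, 519.5, and 251 CPM in livers and 1565, 499.8, 676, 3103, 393, and 308 CPM in tumors. Only T-HCA992 exceeded every liver, and the liver of the same mouse was higher than 5 of the 6 tumors. The log2 fold change was 0.64 ± 0.63 (adjusted p = 0.566), and without T-HCA992 it was -0.04.

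The regulators ran lower rather than higher in tumors, without passing the test. Srebf1 was at 488, 667, 345, 476, 902, and 94.3 CPM in livers and 214, 199.8, 253, 426, 205, and 176 CPM in tumors. NT984 was the lowest of all 12 samples, and the other 5 livers were each above the tumor of their own mouse. Its log2 fold change was -1.01 ± 0.42, with an adjusted p of 0.14. It passed the threshold (-1.23, adjusted p = 0.0247) when NT984 was left out, which did not occur in the 16 other alternatives. Mlxipl was at 827, 599, 451, 618, 685, and 364 CPM in livers and 525, 506, 549, 478, 313, and 344 CPM in tumors. TCi-HCC981 and TCi-HCA984 were below every liver (-0.39 ± 0.24, adjusted p = 0.318). Srebf1 counts do not separate the transcripts for SREBP-1a and SREBP-1c.

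**Figure D3:**
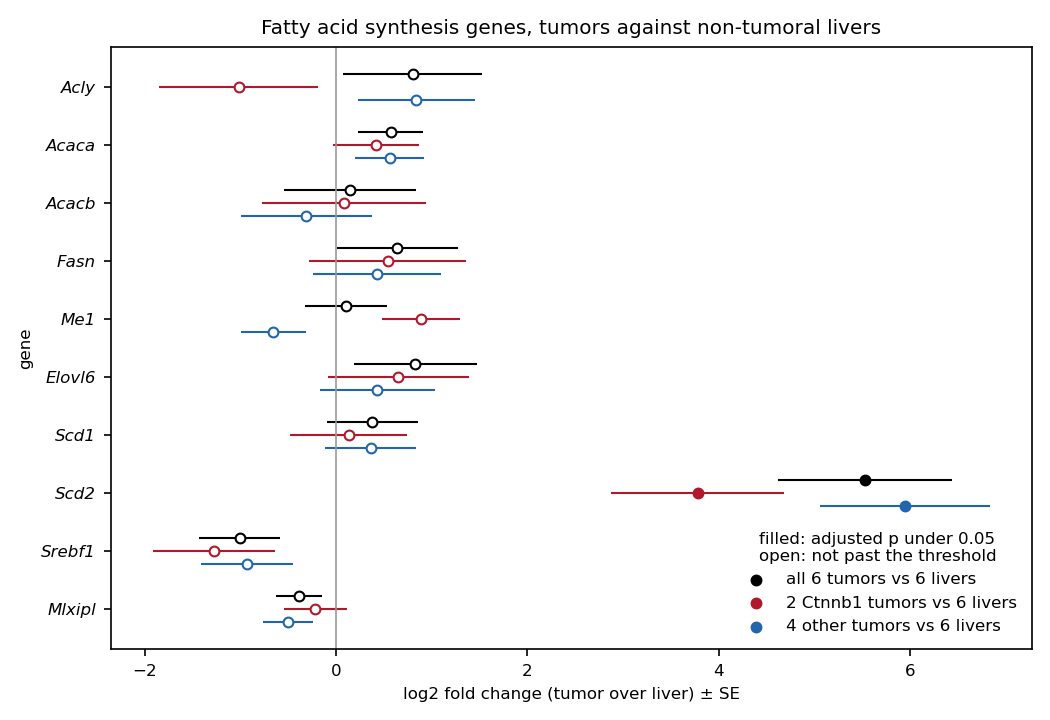
Log2 fold changes of the 10 genes between tumors and the 6 non-tumoral livers, with bars of ± SE, for all 6 tumors (black), the 2 tumors with mutated Ctnnb1 (red), and the 4 other tumors (blue). Filled symbols passed an adjusted p of 0.05, which only Scd2 did in these comparisons (5.53, 3.78, and 5.95), and Me1 shows values on opposite sides of 0 in the tumor classes (0.89 and -0.66).

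Compared with the liver of the same mouse, most members lay on the same side within a tumor, but the side differed between tumors. In T-HCC662, T-HCC941, T-HCA992, and TCi-HCA984, 7 of the 10 members were higher than in the own liver, with median differences of 1.19, 0.50, 0.88, and 0.34 in log2(CPM + 1). In T-HCC663 and TCi-HCC981, 2 of 10 were higher and 8 were lower, with medians of -0.68 and -0.56. Fasn illustrates both patterns. It was 3.07 times its own liver in T-HCC662, 2.34 times in T-HCC941, 1.73 times in T-HCA992, and 1.22 times in TCi-HCA984, but 0.586 times in T-HCC663 and 0.757 times in TCi-HCC981. Acaca, Elovl6, and Scd1 had the same signs as Fasn in all 6 mice. These are differences between single samples and carry no test, and that of T-HCC662 rests on the liver assigned by elimination. Shares and medians over all genes were not computed for the single pairs, so the counts have no background beside them.

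**Figure D4:**
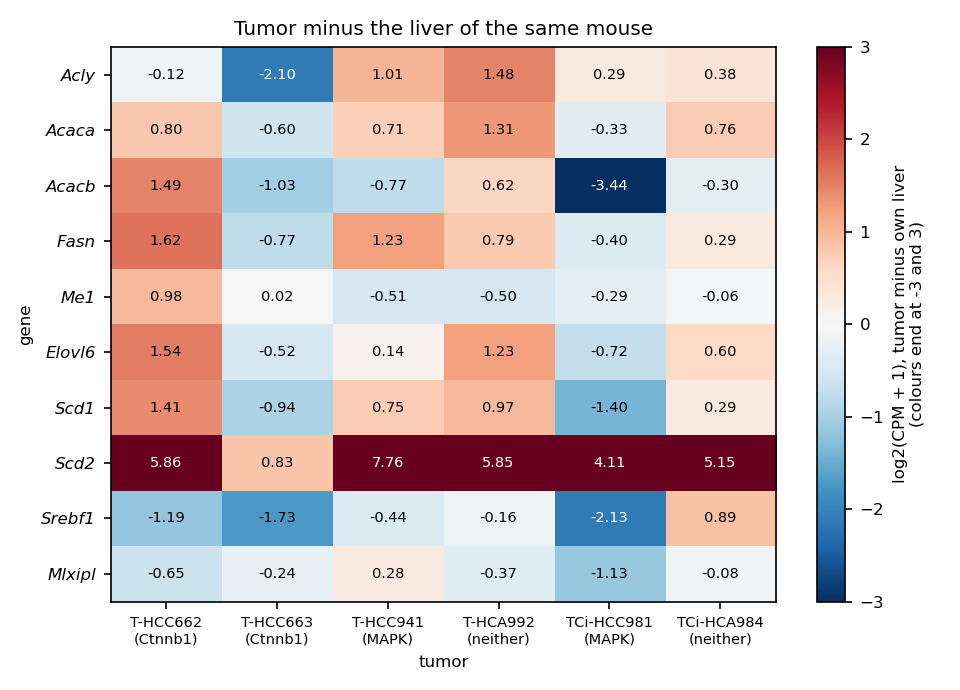
Difference in log2(CPM + 1) between each tumor (columns) and the non-tumoral liver of the same mouse, for the 10 genes (rows), with the value in each cell and colors from blue (lower in the tumor) to red (higher). Scd2 is positive in all columns (0.83 to 7.76), and Acaca, Fasn, Elovl6, and Scd1 are negative in T-HCC663 and TCi-HCC981 and positive in the other 4 tumors.

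Mouse M992 carried the highest levels in both tissues. Its liver was the highest of the 6 livers for 6 of the 10 members, and its tumor was the highest of the 6 tumors for 8 of 10, the exceptions being Me1 and Mlxipl. At the other end, NT984 was the lowest liver for 6 members and TCi-HCC981 the lowest tumor for 6. The mouse at the high end was therefore shared between tumor and liver, and the mouse at the low end was not. For Fasn, mouse M992 was highest and mouse M984 lowest in both tissues. Agreement between the tissues in the order of the mice was not tested. Thrsp (Spot 14), a lipogenic gene that usually follows the pathway, did not have its maximum in mouse M992. It was at 481, 566, 129, 484, 218, and 34.9 CPM in the livers and 519, 182, 107, 271, 29.2, and 40.1 CPM in the tumors, and its liver value in mouse M984 was again the lowest.

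The promoters of Fasn and Acly, members with a common maximum in mouse M992, are shown as RefSeq windows from 250 bases before to 50 bases after the start on GRCm38.p6, with matches to the NF-Y box CCAAT or its reverse complement in capitals. The Fasn window is chr11:120824498-120824797 and the Acly window chr11:100527951-100528250, both on the minus strand.
Fasn: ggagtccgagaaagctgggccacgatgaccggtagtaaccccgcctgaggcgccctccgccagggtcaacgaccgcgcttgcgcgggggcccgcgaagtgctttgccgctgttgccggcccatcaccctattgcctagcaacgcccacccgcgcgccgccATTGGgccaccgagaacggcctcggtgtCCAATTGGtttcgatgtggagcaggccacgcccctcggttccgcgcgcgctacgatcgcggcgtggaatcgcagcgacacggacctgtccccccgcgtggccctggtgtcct
Acly: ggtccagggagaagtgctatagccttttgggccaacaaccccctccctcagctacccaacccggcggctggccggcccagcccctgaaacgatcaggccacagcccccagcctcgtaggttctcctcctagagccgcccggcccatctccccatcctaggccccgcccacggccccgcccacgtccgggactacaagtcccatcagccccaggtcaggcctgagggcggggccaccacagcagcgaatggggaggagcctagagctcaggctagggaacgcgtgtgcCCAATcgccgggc
The Fasn window holds 3 matches, a pair of which overlap on opposite strands, and the Acly window holds 1, downstream of the start. CCAAT was found on either strand in 37.4% of the 32851 promoter windows of the table, so a match is common. Acacb, Me1, Srebf1, and Mlxipl also had a match in at least 1 of their windows, and Acaca and Elovl6 had none. The only windows of Acaca (chr11:84195188-84195487) and Acacb (chr5:114165268-114165567) lie inside the genes, which GENCODE starts at 84129672 and 114146535. They do not cover the first annotated start of these 2 genes. The E-box CACGTG, found in 7.15% of all windows, occurred among the members only in a Mlxipl window, and the sterol element core TCACNCCA, found in 4.36%, only in the other Mlxipl window. Windows were matched by symbol for 8 of the 10 members, and Scd1 and Scd2 were not matched.

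For levels between genes, counts were divided by the exon length of each gene and scaled to 1000000 per library. In livers, Scd1 was first with a median of 3431 (1820–6206) and did not overlap with the next gene, Mlxipl, at 260 (140–326 between livers). Srebf1 (194), Fasn (110), Me1 (55.9), Acly (54.2), Elovl6 (22.7), Acacb (15.2), and Acaca (9.52) followed by median, each overlapping in range with its neighbors. Scd2 was last at 3.34 (1.29–10.4). In tumors Scd2 reached a median of 154 (14.3–596), next to Fasn at 156 (68.8–814) and Srebf1 at 105 (76.4–217), whose ranges it overlapped. Scd1 remained far higher, at 4751 (1527–13750). The value of Acaca is less certain, because its annotated exons sum to 17074 bases and 30.4% of their 50-base stretches occur in other genes.

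By tumor class, Scd2 was higher than in livers in both comparisons. The tumors with mutated Ctnnb1 had 274 and 24.2 CPM, and their log2 fold change over the 6 livers was 3.78 ± 0.90 (edgeR, adjusted p = 0.026), when 8.20% of all genes were called. The call was lost with the mouse as a block (3.44 ± 1.6 and adjusted p = 0.248), without NT662 (3.61, adjusted p = 0.0512), and without T-HCC662 (1.15, adjusted p = 0.606), so it rested on that tumor. The 4 other tumors had 991, 1135, 389, and 152 CPM and a log2 fold change of 5.95 ± 0.89 (adjusted p = 0.00107), which kept the call in all 18 alternatives, against 22.8% of all genes called. No other member was called in either comparison. Between the classes, Scd2 differed by -2.16 ± 1.17 (adjusted p = 0.236), and the difference was not past the threshold.

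Me1 was the one member called between the tumors with mutated Ctnnb1 and the other tumors, against 12.5% of all genes. It was at 265 and 131 CPM in T-HCC662 and T-HCC663, at 52.4 and 45.4 CPM in the MAPK tumors T-HCC941 and TCi-HCC981, and at 120.1 and 66.2 CPM in T-HCA992 and TCi-HCA984. The classes did not overlap, with T-HCC663 just above T-HCA992, and the share of all genes that separate them in this way was not counted. The log2 fold change was 1.55 ± 0.44 (edgeR, adjusted p = 0.0404), or 2.92-fold. With the mouse as a block, which compares the classes by differences from the own liver, it was 0.85 ± 0.34 (adjusted p = 0.233). The call also did not hold with only the p21+/Tert libraries (1.19, adjusted p = 0.167) or without T-HCC662 (0.93, adjusted p = 0.336). It was also lost, at 1.37 to 1.79 with adjusted p of 0.053 to 0.103, when NT663 or any tumor without mutated Ctnnb1 was left out. Against livers, neither class passed the threshold for Me1, at 0.89 ± 0.41 (adjusted p = 0.209) for mutated Ctnnb1 and -0.66 ± 0.34 (adjusted p = 0.192) for the others. Both p21+/TertCi tumors are in the second class, so class and genotype overlap in part. The livers of the p21+/TertCi mice were also the lowest 2 of the 6 for Me1, at 55.7 and 69.1 CPM. The difference between the livers of the genotypes was not past the threshold (1.01 ± 0.53, edgeR, adjusted p = 0.93).

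Between MAPK tumors and tumors with neither driver, 8 of 10 members were fitted lower in the MAPK tumors, with a median of -1.09, while the median over all 15182 genes tested was -0.04. The values ranged from -2.49 ± 1.11 for Acacb, -2.43 ± 0.99 for Elovl6, and -2.21 ± 1.00 for Acly to 0.08 ± 1.21 for Scd2. No member was called, and neither was any other gene (0%, with 1331 genes at an unadjusted p below 0.05 in edgeR and 105 called by DESeq2). With 2 tumors in each class and T-HCA992 in one of them, these values carry no call. The classes follow mutations and not pathway activity, since the paper also reports a MAPK expression signature in T-HCA992.

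Within genotypes, Scd2 was again the member past the threshold in p21+/Tert mice. Its log2 fold change was 5.94 ± 1.19 (edgeR, adjusted p = 0.0171, n = 4 against 4), with 6.49% of all genes called. Leaving out NT662, NT663, or NT941 moved the adjusted p to 0.0658, 0.057, or 0.0553, with log2 fold changes of 5.67, 6.11, and 5.67. In p21+/TertCi mice (n = 2 against 2) it was 4.43 ± 1.56 (adjusted p = 0.388), and no gene was called (0%, with 1618 at an unadjusted p below 0.05). DESeq2 called 375 genes in this comparison, Scd2 among them (adjusted p = 0.0189). The difference between the genotypes in the tumor effect on Scd2 was 1.51 ± 1.68 and not past the threshold. All 10 interaction terms were above 0, from 0.32 for Me1 to 1.62 for Acacb, with a median of 0.72 beside 0.06 over all genes. None passed (adjusted p = 1.00), and no gene was called (0%, with 556 at an unadjusted p below 0.05 and 10 called by DESeq2).

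The non-tumoral livers of the genotypes did not differ past the threshold in any member. Fitted log2 differences (p21+/Tert over p21+/TertCi) ran from -0.36 ± 1.17 for Scd2 to 1.31 ± 0.81 for Elovl6, with a median of 0.64 beside -0.02 over all genes. Elovl6 was at 68.6–205 CPM in the 4 p21+/Tert livers and at 45.4 and 41.1 CPM in the p21+/TertCi livers (edgeR, adjusted p = 0.93). The share of all genes that separate the livers of the genotypes in this way was not counted. Srebf1, in contrast, was at 902 and 94.3 CPM in the p21+/TertCi livers, the highest and the lowest of the 6. No gene was called here (0%, with 756 at an unadjusted p below 0.05, and 42 called by DESeq2).

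The steps around the members were described by 7 lists. Between all tumors and all livers, 6.77% of the genes tested were called higher and 3.91% lower. In the list for supply and NADPH, 2 of 7 genes rose and 1 fell (median log2 fold change -0.11 beside 0.01 for all genes). G6pdx and Pgd, the NADPH-forming dehydrogenases of the pentose phosphate pathway, rose by 2.97 ± 0.72 (adjusted p = 0.0205) and 1.15 ± 0.27 (adjusted p = 0.0182). G6pdx was at 3.46–14.7 CPM in livers and 5.32–117 CPM in tumors, and its call was lost without NT662. Mdh1, cytosolic malate dehydrogenase, fell by 0.89 ± 0.21 on the log2 scale (adjusted p = 0.0201). The citrate carrier Slc25a1 (-0.15 ± 0.30) and the acetyl-CoA synthetase Acss2 (-0.11 ± 0.57) were close to 0.

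Among the genes for elongation and desaturation, 2 of 11 tested rose and 1 fell (13 listed; median 0.29). Elovl7, an elongase of long saturated chains, was at 0–1.22 CPM in livers and 8.74–59.6 CPM in tumors and rose by 5.96 ± 0.73 (adjusted p = 0.000788). Elovl3, an elongase of saturated and monounsaturated chains, fell by 4.34 ± 1.03 on the log2 scale (adjusted p = 0.0185), with 0.205–20.7 CPM in tumors. In livers it was at 281 ± 256 CPM in p21+/Tert mice (SD, n = 4, lowest 138 and highest in NT992) and at 13.4 and 15.8 CPM in p21+/TertCi mice. No gene of this list, Elovl3 included, was called between the livers of the genotypes. Hacd2, a dehydratase of the elongation cycle, rose by 0.76 ± 0.22 (adjusted p = 0.0435), a call that was lost in 9 of the 12 fits with 1 library left out. As with Scd2, the elongase that rose most in tumors was one with little signal in the livers.

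In activation and glyceride synthesis, 1 of 10 genes rose and 1 fell (median 0.35). Acsl4, an acyl-CoA synthetase that prefers arachidonate, rose by 1.63 ± 0.27 (adjusted p = 0.00314), from 33.3–75.6 to 83.8–273 CPM. Acsl1, the main acyl-CoA synthetase of liver, fell by 1.18 ± 0.32 on the log2 scale (adjusted p = 0.0333), a call lost in 7 of the 12 fits with 1 library left out. Of the 11 droplet and uptake genes, 2 rose and none fell (median 0.52). These were the fatty acid binding protein Fabp4 (2.53 ± 0.31, adjusted p = 0.000835), at 2.83–7.03 CPM in livers and 13.7–39.6 CPM in tumors, and Pnpla3 (4.39 ± 0.88, adjusted p = 0.0077), a lipid droplet protein. None of the 18 regulators (median -0.09) and none of the 8 carbohydrate response genes (median -0.25) was called. Insig1, which holds SREBP in the endoplasmic reticulum and is itself a target of it, was at -0.09 ± 0.41, and Thrsp at -0.74 ± 0.72. Of the mitochondrial fatty acid synthesis genes, 5 were tested and Mecr fell by 0.45 ± 0.12 on the log2 scale (adjusted p = 0.0335, lost in 6 of 12 fits with 1 library left out). With the mouse as a block, all 11 of the named list genes kept their call, and 7 of 11 kept it whichever library was left out.

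The lists were also counted in each tumor class against livers. In the 4 tumors without mutated Ctnnb1 against livers (11.3% of all genes higher and 11.5% lower), G6pdx (3.43 ± 0.58), Pgd (1.37 ± 0.25), Elovl7 (5.51 ± 0.70), Acsl4 (1.85 ± 0.24), Fabp4 (2.51 ± 0.35), and Pnpla3 (4.71 ± 0.86) rose, with adjusted p from 0.000408 to 0.00303. Mdh1 (-1.08 ± 0.22), Acsl1 (-1.33 ± 0.29), Acsf3 (-1.19 ± 0.20), and Mecr (-0.55 ± 0.12) fell, with adjusted p from 0.00216 to 0.00799. These 10 genes kept their calls whichever library was left out, out of 19 named in this comparison. The others were Elovl3, Tecr, Plin4, Nr1h3 (LXRα), Stk11, and Cbr4, which fell, and Acsl5, Fabp5, and Prkaa1, which rose, and 4 of these (Tecr, Fabp5, Prkaa1, and Cbr4) lost the call with the mouse as a block. In the tumors with mutated Ctnnb1 against livers (5.00% higher and 3.20% lower), Elovl7 (6.49 ± 0.76, adjusted p = 0.000637), Fabp4 (2.53 ± 0.40, adjusted p = 0.00356), Hacd2 (1.13 ± 0.26, adjusted p = 0.0216), and Pparg (1.15 ± 0.32, adjusted p = 0.0498) rose and no list gene fell. Without T-HCC662, Fabp4, Hacd2, and Pparg lost the call. Elovl7 lost it in 1 of 18 alternatives, the mouse as a block without mouse M662 (4.73, adjusted p = 0.0616). Pparg also lost it in 9 other fits with 1 library left out.

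Directly between the classes (6.76% of all genes higher and 5.72% lower in tumors with mutated Ctnnb1), 6 of the 72 list genes tested were called, or 8.33%, below the 12.5% of all genes. Of the 11 droplet and uptake genes, 3 were higher with mutated Ctnnb1. Plin4, a droplet coat protein, was at 154 and 130 CPM there and 0.976–38.2 CPM in the other tumors, a difference of 4.09 ± 0.89 (edgeR, adjusted p = 0.0156). The lipase Pnpla2 (1.39 ± 0.37, adjusted p = 0.0339) and Plin5 (1.89 ± 0.57, adjusted p = 0.0497) were the others. Dgat1 and Acsf3 were also higher, and G6pdx was lower by 2.92 ± 0.88 on the log2 scale (adjusted p = 0.0496). With the mouse as a block, which compares differences from the own liver, 2 of these 6 genes, Plin4 and Plin5, were called. None of the 6 kept the call whichever library was left out.

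Markers of other cell types are given beside these values. The sum of 5 endothelial markers was 42.4–115 CPM in livers, 49.3 and 86.7 CPM in T-HCC662 and T-HCC663, and 127–214 CPM in the other tumors, and Pecam1 rose by 1.59 ± 0.38 in all tumors (adjusted p = 0.0179). The 6 stellate cell or fibroblast markers summed to 40–194 CPM in livers and 19.5–258 CPM in tumors. The fibroblast sum in livers was mostly Dcn (30.3–142 CPM), which was fitted at -0.86 between tumors and livers. Col1a1, Col1a2, Acta2, Pdgfrb, and Lum were fitted at 2.02, 1.59, 2.10, 0.50, and 0.11 (list median 1.04, none called). In the tumors without mutated Ctnnb1 against livers, 3 of 6 fibroblast and 2 of 5 endothelial markers were called higher, with 11.3% of all genes. With mutated Ctnnb1, 1 fibroblast marker was called lower, with 3.20% of all genes. The 5 macrophage markers summed to 100.4–1099.7 CPM in livers and 114–716 CPM in tumors, and the 4 bile duct markers to 9.33–21.1 CPM and 3.92–56.6 CPM. The bile duct sum was mostly Sox9 (56.3 CPM in TCi-HCC981), while Krt7, Krt19, and Epcam were fitted at -1.07, -0.75, and -0.60 between tumors and livers, and none of the 4 was called (median -0.68). The 4 T cell markers summed to 0.679–7.84 CPM in livers and 1.76–23.0 CPM in tumors, and the 3 B cell markers to 0.485–32.3 CPM and 0.511–12.4 CPM. In T-HCC662, Scd2 was 73.1 times the liver assigned to it by elimination. Its endothelial, fibroblast, and macrophage sums were 49.3, 19.5, and 114 CPM, against 77.4, 94.2, and 110.1 CPM in that liver. In T-HCC941, Scd2 was 278 times its own liver. There the same sums were 127, 116, and 217 CPM, against 42.4, 40, and 176 CPM in NT941. Each of these sums was also higher in TCi-HCA984 than in NT984. In T-HCC663, T-HCA992, and TCi-HCC981, some of these sums were higher than in the own liver and others lower. The fat cell markers Adipoq, Plin1, Lep, and Retn were at 0–0.19 CPM in all 12 libraries. The fifth, Lipe, was at 17.4–28.5 CPM in livers and 10.8–18.5 CPM in tumors and was called lower in tumors (-0.70 ± 0.18, edgeR, adjusted p = 0.0282). The part of other cell types in the Scd2 values was not tested in any tumor.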

How the data were processed

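RNA-seq was analysed for 12 libraries of 6 mice. Per the labels and the methods, the authors filtered reads by quality, used Subread for alignment to an mm10 genome that included mCherry, and obtained gene counts with featureCounts 1.6.4. The deposited values are raw counts of reads for 24421 symbols, without normalization. Strandedness and the treatment of multiply aligned reads are not given in the sources used here. The authors corrected their differential expression for the sequencing run. No term for the run was fitted here, since the sources used here do not assign samples to runs. Differences between runs may therefore remain in the values.

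Groups came from the labels by tissue and genotype, and driver classes from the published mutations by mouse number. Counts were scaled by TMM and filtered with filterByExpr, and 9 comparisons were tested with the quasi-likelihood test of edgeR 4.0.16 in R 4.3.3, with Benjamini-Hochberg adjustment over all genes tested. Comparisons within genotypes or tumor classes used all 12 libraries in 1 model. CPM were computed over all genes. No pair of libraries of 1 group differed by less than the sampling noise. Gene positions and exon lengths are from GENCODE M21 on GRCm38, and promoter windows from RefSeq (GRCm38.p6). The fits were tested on simulated data with 200 changed genes. The main tests did not use the pairing of samples by mouse. Their p-values rest on the spread between libraries within groups, shared over all 12 libraries, also where a group held only 2.

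The members and all lists were chosen with earlier results of these data known. All 10 members are named. Of the lists, up to 5 called genes of smallest p per list and comparison are named, and Thrsp, Insig1, Acss2, and Slc25a1 always. Same-numbered samples come from 1 mouse and pair each tumor with its liver. The correlation of their deviations from the group means was 0.129, 0.046, 0.012, 0.386, 0.51, and 0.51 for mice M662, M663, M941, M992, M981, and M984. Alternatives were DESeq2 1.42.0, RLE size factors, no filter beyond 1 count per gene, a block for the mouse with and without M662, only the libraries compared, only p21+/Tert libraries, and each library left out. The block sets each tumor against its own liver. Between tumor classes it therefore compares these differences and not the tumor levels.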

Additional observations from a re-analysis of the deposited data

Results flagged for a closer look

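Acly in T-HCA992, at 1266 CPM, stood apart from the other tumors without mutated Ctnnb1, at 127 to 179 CPM, with a gap of 0.852 of the range of these 4 tumors in log2(CPM + 1). Chance flags about 1 in 20 such groups, and 50 were examined over the 10 genes.

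Acly also split by driver class when each tumor was set against its own liver. The difference in log2(CPM + 1) was -0.12 and -2.10 in T-HCC662 and T-HCC663, with a median of -1.11, and 0.29 to 1.48 in the 4 other tumors, with a median of 0.70. This split of the differences against the own liver was not tested, and in the fit over all libraries the classes differed by -1.86 ± 0.91 (edgeR, adjusted p = 0.191).

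Me1 differed between the tumor classes by 1.55 on the log2 scale (edgeR, adjusted p = 0.0404), a call that held in 9 of 19 alternatives. With the mouse as a block it was 0.85 (adjusted p = 0.233), and 0.37 (adjusted p = 0.676) when mouse M662 was also left out. Against the own liver it was 0.98 and 0.02 higher in T-HCC662 and T-HCC663 (median 0.50) and lower in the other 4 tumors (median -0.40). The value in T-HCC663 was 1.02 times that of its liver.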

How the results depend on the processing

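The count of members called was unchanged in the alternatives not named here. Scd2 kept its call between all tumors and livers in all 17 alternatives, at 5.07 to 5.86. With the mouse as a block (replicate block), 0 members were called in the comparison of tumors with mutated Ctnnb1 with livers and 0 between the tumor classes, in each case also when mouse M662 was left out, and 0 in p21+/Tert mice when mouse M662 was left out. DESeq2 called 1 member in p21+/TertCi mice. Between the tumor classes, 0 were called with only the libraries compared or only the p21+/Tert libraries. With 1 library left out, the count ran from 1 to 2 for all tumors and for the other tumors against livers, and from 0 to 1 in p21+/Tert mice, for mutated Ctnnb1 against livers, and between the classes. The cause of these changes was not tested. Over all genes, DESeq2 called 2407 genes against 1476 between tumors and livers, and the block called 441 against 1895 between the classes.

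Changes of sign concerned values that did not pass the threshold. Between all tumors and all livers, the block gave -0.53 for Acacb and -0.07 for Me1, and the block without mouse M662 gave -0.94 for Acacb, -0.28 for Me1, and -0.06 for Scd1. With 1 library left out, it ran from -0.56 to 1.34 for Acly, -0.56 to 0.54 for Acacb, -0.04 to 1.19 for Fasn, -0.35 to 0.31 for Me1, -0.05 to 0.58 for Scd1, -0.45 to 0.21 for Insig1, -0.62 to 0.23 for Acss2, and -0.35 to 0.01 for Slc25a1. Scd2 ran from -0.38 to 2.32 for the genotype interaction, from -1.15 to 1.53 between livers of the genotypes, and from -0.74 to 2.14 between MAPK tumors and those with neither driver, and Srebf1 from -0.87 to 2.36 between livers of the genotypes. The liver values of Scd2 rest on 47 to 513 reads and those of its tumors on 552 to 31668.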
